A study of Mus musculus with 18 samples.

Results

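The samples described here are 6 of the 18 arrays of a mouse macrophage time course: the 3 arrays of macrophages given lipopolysaccharide (LPS) for 10 min and the 3 given LPS plus interleukin-10 (IL-10) for 10 min, chosen by the treatment and time in their titles and paired by replicate number. The other 12 arrays hold the same 2 treatments at 20 and 30 min. Bone marrow of IL-10-/- mice was grown for 7 days with the growth factor CSF-1, supplied as medium conditioned by L cells, until over 95% of viable cells were mature macrophages. The cells then received LPS at 100 ng/ml, alone or with IL-10 at 10 ng/ml, in medium without CSF-1, after being scraped off and re-plated. Both groups therefore lack their own functional Il10 gene, both were stimulated, and the only stated difference between them is the added cytokine. Each replicate number is a complete experiment of its own, with mice matched for age and sex, and the 3 experiments were run one after another. Untreated macrophages were not analysed here, so a signal at 10 min is a near-baseline level that already includes 10 min of LPS and the handling of the cells.

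LPS, a component of the outer membrane of gram-negative bacteria, is handed by CD14 to the complex of TLR4 and MD-2, and the adaptor proteins below it activate NF-kappa-B and the MAP kinases. These switch on immediate early genes, cytokines and chemokines from promoters that are largely ready before the stimulus. IL-10 is the main anti-inflammatory cytokine of macrophages. It binds a receptor made of IL-10Ra and IL-10Rb, acts through the kinases JAK1 and TYK2 on the transcription factor STAT3, and restrains inflammatory genes through the products of the genes that STAT3 induces.

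The promoters of 4 genes on which the time comparisons turn are shown first. Socs3 and Sbno2 are genes whose IL-10 difference was larger after 10 min than at 10 min, and Cxcl2 and Cxcl1 were far below their later level at 10 min under both treatments. The windows are RefSeq sequences of build GRCm38.p6, from 250 bases before the transcription start to 50 bases after it, written 5′ to 3′ on the gene's strand. Capitals in Socs3 (chr11:117969317-117969616, minus strand) and Sbno2 (chr10:80102653-80102952, minus strand, 1 of 3 listed starts) mark the STAT-type motif TTCNNNGAA, which reads the same on both strands. Capitals in Cxcl2 (chr5:90903649-90903948, plus strand) and Cxcl1 (chr5:90890995-90891294, plus strand) mark the kappa-B-type motif GGNNTTTCC on either strand.
Socs3: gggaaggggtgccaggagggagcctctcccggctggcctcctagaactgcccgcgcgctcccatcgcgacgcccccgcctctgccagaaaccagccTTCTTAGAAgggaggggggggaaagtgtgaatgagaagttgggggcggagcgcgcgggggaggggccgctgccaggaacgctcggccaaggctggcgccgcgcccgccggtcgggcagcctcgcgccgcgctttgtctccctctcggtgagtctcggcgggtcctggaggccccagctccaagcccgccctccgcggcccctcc
Sbno2: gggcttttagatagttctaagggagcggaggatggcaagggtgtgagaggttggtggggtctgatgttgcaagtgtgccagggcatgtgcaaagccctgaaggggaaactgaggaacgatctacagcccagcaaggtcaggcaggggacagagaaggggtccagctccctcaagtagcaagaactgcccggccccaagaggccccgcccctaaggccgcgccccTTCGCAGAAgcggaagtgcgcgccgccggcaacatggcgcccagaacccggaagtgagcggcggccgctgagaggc
Cxcl2: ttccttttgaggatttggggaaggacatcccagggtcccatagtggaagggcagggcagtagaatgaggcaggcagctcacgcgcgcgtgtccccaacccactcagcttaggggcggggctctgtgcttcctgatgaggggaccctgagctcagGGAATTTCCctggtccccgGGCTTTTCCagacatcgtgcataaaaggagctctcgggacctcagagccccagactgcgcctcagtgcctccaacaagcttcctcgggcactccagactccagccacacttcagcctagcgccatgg
Cxcl1: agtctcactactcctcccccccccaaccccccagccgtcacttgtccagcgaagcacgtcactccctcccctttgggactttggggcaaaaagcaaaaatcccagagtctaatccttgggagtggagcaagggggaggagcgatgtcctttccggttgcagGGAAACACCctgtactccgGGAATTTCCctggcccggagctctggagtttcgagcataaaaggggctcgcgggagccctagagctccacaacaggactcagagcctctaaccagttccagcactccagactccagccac
The STAT-type motif began 154 bases before the Socs3 start and 26 bases before this Sbno2 start. A second Sbno2 start held it 24 bases upstream, the third did not hold it, and neither did the single window of Etv3. Of all 32851 promoter windows in the RefSeq table, 8.3% held the STAT-type motif and 5.82% the kappa-B-type motif. Cxcl2 held the kappa-B-type motif at 96 and 77 bases before its start, and Cxcl1 held it at 89 and 70 bases. The letters of this motif were settled after other spellings had been searched in the same windows. These matches describe letters in a window and are not evidence that a factor was bound there at 10 min.

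Signals are Affymetrix intensities, analysed as log2(signal + 16), and a difference of 1 on that scale is a doubling for a bright probe set. The mean of each array, with 2% trimmed from each end, was 500.003 to 500.004 array units on these 6. Their medians ran from 76.7 to 92.9, and the ratios of 3′ to 5′ control probe sets, a measure of RNA integrity and of the labelling, ran from 0.762 to 0.855 for Gapdh and from 1.14 to 1.31 for Actb. Rank correlations across all probe sets were 0.914 to 0.925 between the 2 arrays of an experiment and 0.896 to 0.919 between arrays of different experiments. Among the later arrays, LPS at 20 min in experiments 2 and 3 stood apart, with lower quartiles of 34.0 and 38.6 units against 21.8 to 31.0 units on the other 16 arrays. Of 45101 probe sets, 27110 were at or above the array median on at least 3 of the 18 arrays and were tested, and they covered 12527 genes. Unless another probe set is named, values for a gene come from the tested one with the highest mean log2 signal over 18 arrays, called its representative. Values of 3 arrays stand in the order of experiments 1, 2 and 3.

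The first question was whether 10 min of IL-10 had altered any transcript. With LPS plus IL-10 set against LPS alone, no gene passed the test. Of 27110 probe sets, 0 were called by limma at a Benjamini-Hochberg adjusted p of 0.05, a share of 0%, and the smallest adjusted p was 0.598. At an unadjusted p below 0.05, limma counted 970 probe sets, of which 365 were higher and 605 lower with IL-10. The median difference over all probe sets was 0.00. The design gave a median 95% half-width of 0.47 on the log2 scale, a 1.38-fold change in either direction. For 20013 probe sets, 73.8% of those tested, the whole interval lay within a 2-fold change. Precision followed brightness: with the probe sets split by brightness into 4 equal groups, the median half-width was 0.99 in the dimmest group and 0.26 in the brightest, and intervals lay within a 2-fold change for 18.7% of the dimmest and 99.7% of the brightest. Of the 335 probe sets whose estimate was beyond 2-fold, 308 were in the dimmest of the 4 groups.

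**Figure D1:**
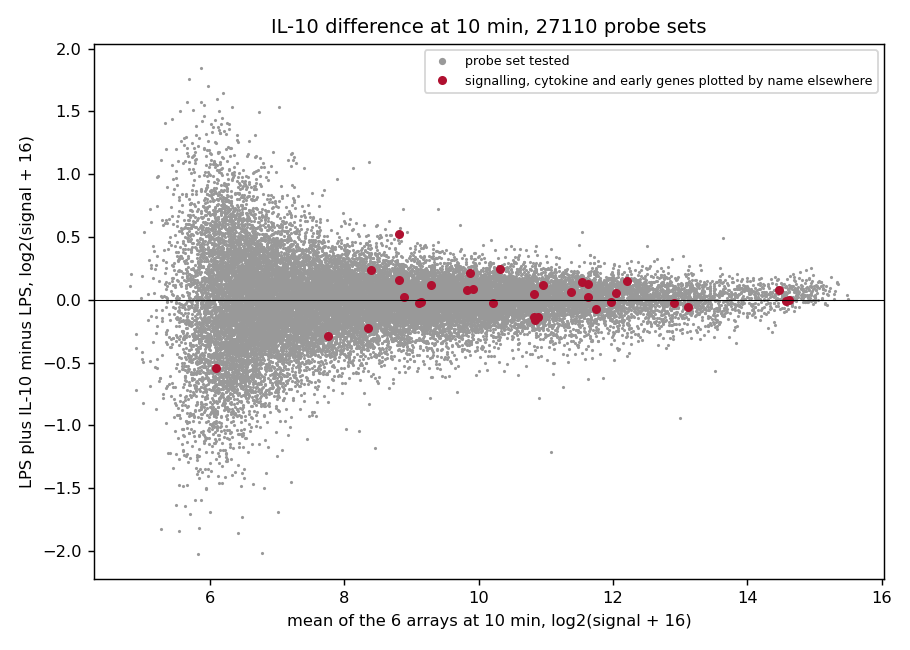
IL-10 difference at 10 min (y axis, LPS plus IL-10 minus LPS in log2(signal + 16)) against the mean of the 6 arrays (x axis, log2(signal + 16)), 1 grey point per tested probe set; red points are the 33 tested receptor, cytokine and early genes plotted by name. The cloud narrows from left to right, and none of the 27110 points passed the test.

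The genes named in this paragraph and the next were picked for the smallest unadjusted p with the same direction in all 3 experiments. That agreement was a condition of the choice and not a result, and the intervals describe picked genes. Those lower with IL-10, none passing, included Chmp1b, a membrane-remodelling protein of the ESCRT machinery, the splicing factor genes Srrm1 and Sf3b2 and the linker histone H1f2. The others were the glucocorticoid receptor gene Nr3c1, the vesicle-traffic GTPase Rab6a, the polyamine enzyme Odc1 and the cytoskeletal linker Rdx. Chmp1b read 1552, 2458 and 2049 with LPS alone and 1149.6, 1568 and 1443 with IL-10 added, a difference of -0.52 (95% interval -0.73 to -0.32) with an adjusted p of 0.598 by limma. Its groups overlapped: the LPS array of experiment 1 lay below the IL-10 array of experiment 2. Srrm1 (probe set 1447447_s_at) read 4491, 3924 and 3432 with LPS alone and 2968, 2438 and 2246 with IL-10 added, a difference of -0.63 (95% interval -0.88 to -0.38). H1f2 read 2292, 2739 and 2448 with LPS alone and 1554, 1162 and 1651 with IL-10 added, a difference of -0.78 (95% interval -1.10 to -0.46). For both of these the 3 LPS arrays lay above the 3 IL-10 arrays, yet neither passed across all probe sets.

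Higher in each experiment, again without passing, were Mmp14, a membrane-bound matrix protease, the pyrimidine-synthesis enzyme Cad, the non-coding transcript D430020J02Rik, Hacd4, Rit1, Ebna1bp2, the sarcoglycan gene Sgca and Sec61a1, a subunit of the translocon of the endoplasmic reticulum. Cad read 487, 329 and 296 with LPS alone and 599, 559 and 443 with IL-10 added, a difference of 0.53 (95% interval 0.22 to 0.84). Mmp14 read 13.6, 98.6 and 110 with LPS alone and 68.4, 148 and 262 with IL-10 added, a difference of 1.06 (95% interval 0.46 to 1.66), and its groups overlapped. Sgca was dim, at 10.4 to 151 units, and had the widest interval of the 8, 0.64 to 2.76 around 1.70.

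A fit of these 6 arrays alone, which estimates the spread from them only, called 2 probe sets, both lower with IL-10. They are named here after their values were seen. One was Srrm1, at -0.63 with an adjusted p of 0.0456 by limma, and the other, probe set 1439421_x_at, has no gene name here and averaged 3301 units with LPS and 1413 with IL-10 added, a difference of -1.21 with an adjusted p of 0.000165. In the fit of all 18 arrays their adjusted p-values were 0.598 and 0.917.

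The receptor and signalling genes through which IL-10 acts gave signals above the array median on all 6 arrays. Of the 9 listed receptor, JAK and STAT genes with a probe set, 9 exceeded the array median on all 6 arrays and 8 exceeded the upper quartile. Over all 12527 genes tested, 9502 exceeded the median on all 6 arrays and 5994 the upper quartile. Il10ra, the ligand-binding chain, read 236, 559 and 703 with LPS alone and 276, 486 and 721 with IL-10 added. It was lowest in experiment 1 and highest in experiment 3 under both treatments. Il10rb, the shared second chain, read 7472, 9254 and 6802 with LPS alone and 7795, 9722 and 5841 with IL-10 added, with the IL-10 array of experiment 3 the lowest. The kinase genes Jak1 and Tyk2 spanned 4191 to 5674 and 696 to 1139.7 units, and Stat3 spanned 2165 to 3009. Their IL-10 differences were 0.02 (95% interval -0.37 to 0.41) for Il10ra, -0.03 (95% interval -0.26 to 0.20) for Il10rb and 0.06 (95% interval -0.33 to 0.46) for Stat3. None of the 9 passed the test, and their median difference of 0.02 stood beside 0.01 over all 12527 genes.

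Genes that IL-10 and STAT3 are known to induce did not pass the test at 10 min. Socs3, which encodes an inhibitor of cytokine receptors, read 670.1, 588 and 402 with LPS alone and 409.8, 569.9 and 643 with IL-10 added on its brightest probe set. The 2 groups overlapped, with the IL-10 array the lower in experiment 1 and the higher in experiment 3, and the difference was -0.02 (95% interval -0.53 to 0.48). On the dimmer 1416576_at Socs3 read 182, 486 and 230 with LPS alone and 227, 444.5 and 490 with IL-10 added. The difference there was 0.41 (95% interval -0.11 to 0.92), and on 1456212_x_at it was -0.06 (95% interval -0.54 to 0.42), neither passing. Sbno2, a co-regulator of inflammatory genes, read 367, 564 and 331 with LPS alone and 399, 508 and 473 with IL-10 added, a difference of 0.15 (95% interval -0.20 to 0.51). Etv3, an ETS-family repressor, read 2128, 2181 and 1538 with LPS alone and 1752, 2058 and 1409.8 with IL-10 added, a difference of -0.16 (95% interval -0.40 to 0.08). Nfil3, a repressor of inflammatory genes, had a difference of -0.22 (95% interval -0.73 to 0.28), and Gadd45g, a growth-arrest gene, one of 0.12 (95% interval -0.36 to 0.60). Over the 16 genes of this list 9 estimates were above 0 and 7 below, between -0.22 and 0.20 with a median of 0.08, and 0 passed.

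Il10 itself gave a signal although all cells carried the disrupted gene. Its probe set read 756, 819 and 1058 with LPS alone and 928, 769 and 1073 with IL-10 added, with overlapping groups and a difference of 0.07 (95% interval -0.27 to 0.41). No source used here says which part of the disrupted transcript the probes read, so the probe set does not check the genotype.

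**Figure D2:**
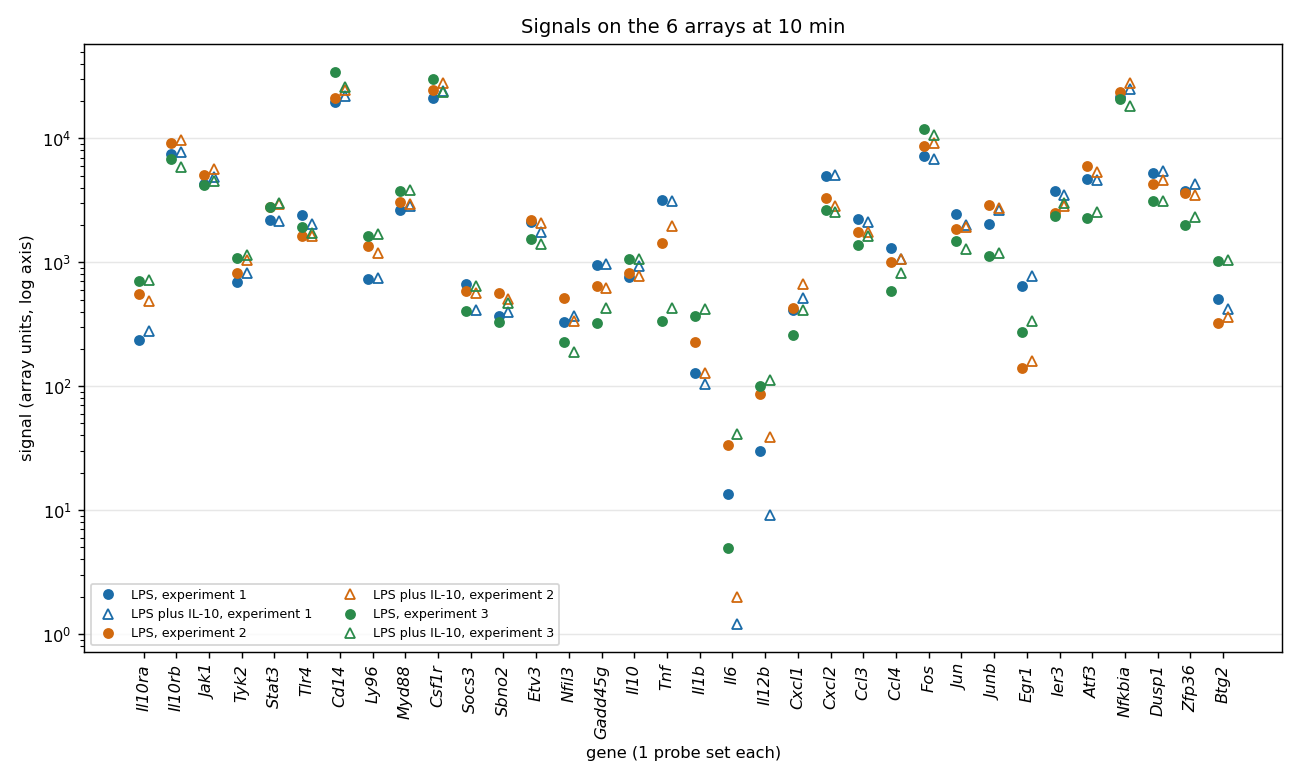
Signal on each of the 6 arrays at 10 min (y axis, array units, log axis) for 34 receptor, signalling, cytokine and early genes (x axis); circles are LPS, triangles LPS plus IL-10, and colours the 3 experiments. Circles and triangles of 1 colour mostly sit together, while the colours are apart for genes such as Tnf, Ly96 and Egr1; Il6, at 1.2 to 41.2 units, was too dim to test.

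**Figure D3:**
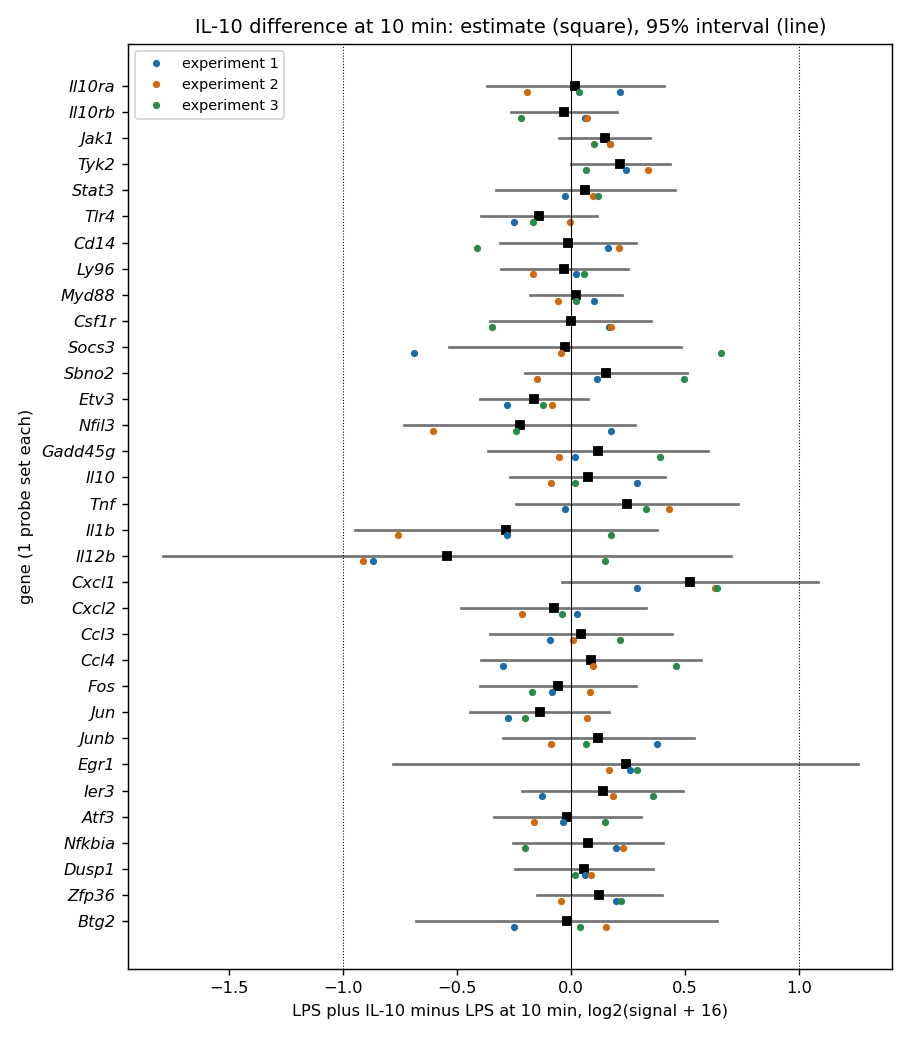
IL-10 difference at 10 min (x axis, LPS plus IL-10 minus LPS in log2(signal + 16)) for the 33 tested genes of the panel (y axis); squares are estimates, lines 95% intervals, coloured dots the differences of the 3 experiments and dotted lines 2-fold changes. No estimate passed the test, and the interval of Il12b, -1.79 to 0.70, is the widest.

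Cytokine, chemokine and early genes did not pass either. Tnf, the prototype macrophage cytokine, read 3157, 1438 and 334 with LPS alone and 3105, 1945 and 424 with IL-10 added. Its experiments were far apart and its IL-10 difference was 0.25 (95% interval -0.24 to 0.73). The neutrophil chemokine gene Cxcl2 had a difference of -0.07 (95% interval -0.48 to 0.33). Its relative Cxcl1 had one of 0.52 (95% interval -0.04 to 1.08), which was above 0 in each of the 3 experiments on this probe set, 1457644_s_at. On 1419209_at the Cxcl1 difference was 0.19, with experiment 2 at -0.05, and on 1441855_x_at it was 0.04, with experiment 1 at -0.25. Dusp1, a MAP kinase phosphatase, had 0.06 (95% interval -0.25 to 0.36). Fos, a subunit of AP-1, had -0.06 (95% interval -0.40 to 0.29). Over the lists, 6 cytokine estimates were above 0 and 7 below, with 12 and 6 for the chemokines and 8 and 20 for the immediate early genes. The medians were -0.02, 0.04 and -0.06. Of all 234 tested members of the gene lists, 5 had an unadjusted p below 0.05 by limma, beside 424 of all 12527 genes. Nothing particular to the lists is read from that count, and each of the 5 had an adjusted p of 0.9997 by limma. They were the receptor genes Tlr1 and Il1rap and the chemokine gene Cxcl11 on the lower side, with differences of -0.35, -0.55 and -1.29, and the marker genes Pax5 and Cd209a on the higher side, at 1.11 for each, from probe sets with group means under 100 units.

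The brightest probe sets of the 6 arrays belonged to the cytoskeleton, the ribosome and macrophage products. A probe set's brightness depends on its sequence as well as on transcript number, so this is an order of probe sets and not of transcripts. The 25 brightest named genes included the actin-binding and cytoskeletal genes Tmsb4x, Tmsb10, Actb, Actg1 and Vim, the galectins Lgals1 and Lgals3, the lysozymes Lyz1 and Lyz2, the iron-storage subunit Fth1 and the lysosomal protease Ctsb. They also included lipoprotein lipase (Lpl), the calcium-binding S100a4, the interferon-inducible Ifitm3, Akr1a1, Tpt1, the elongation factor Eef1a1, and the ribosomal genes Rps29, Rpl38, Rpl41, Rps3a1, Rpl35, Rplp2, Rpl37a and Rps28. Tmsb4x read 38042, 47002 and 55832 with LPS alone and 44552, 55530 and 40632 with IL-10 added. Lyz2 read 27428, 33314 and 38261 with LPS alone and 31904, 41190.5 and 27392 with IL-10 added. The array with LPS plus IL-10 in experiment 2 was the highest for 22 of the 25 genes, and the LPS array of experiment 1 was the lowest for 15. The IL-10 differences of the 25 were at most 0.15 in size.

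Macrophage identity genes were bright throughout. All 15 of the listed ones with a probe set exceeded the upper quartile on all 6 arrays, as did 12 of 13 lysosomal genes and 12 of 12 housekeeping genes, against 5994 of the 12527 genes tested. Csf1r, the receptor for CSF-1, read 21374, 24598 and 30021 with LPS alone and 24004, 27815 and 23603 with IL-10 added. Cd68, a lysosomal membrane protein, spanned 18328 to 26909 units, the protease gene Ctss 22846 to 36128, the pore-forming Mpeg1 19952 to 27798 and Adgre1, which encodes F4/80, 10408 to 26042. Adgre1 was lower on both arrays of experiment 1 than on the other 4. The myeloid transcription factor genes Spi1 and Cebpb spanned 3783 to 7998 and 5325 to 9038 units.

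Of 17 listed genes of the LPS receptor and its signalling, 13 had a probe set under a single symbol. Those 13 exceeded the array median on all 6 arrays, beside 9502 of the 12527 genes tested. Ticam2, Irak4, Chuk and Nfkb1 were not analysed here. Cd14, the co-receptor that delivers LPS, read 19551, 21309.6 and 34595 with LPS alone and 21919.9, 24663 and 26029 with IL-10 added. Tlr4 read 2419, 1639.5 and 1929 with LPS alone and 2033, 1637 and 1716 with IL-10 added. Ly96, which encodes MD-2, read 737, 1344 and 1639 with LPS alone and 749.6, 1194 and 1707 with IL-10 added, and both arrays of experiment 1 were below the other 4. The adaptor gene Myd88 spanned 2666 to 3801 units, the kinase gene Irak1 1490.5 to 1993, the NF-kappa-B subunit gene Rela 2124 to 3018 and the adaptor gene Ticam1 251 to 341. None of the 13 measured genes passed the test with IL-10 or between 10 min and the later times.

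Among the other Toll-like receptors, the receptor for bacterial lipopeptides, Tlr2, spanned 3704 to 7047 units and the RNA receptors Tlr13 and Tlr7 3191 to 5336 and 1180.2 to 2624, while Tlr5, the flagellin receptor, stayed at 7.7 to 80.6. Of the cytokine receptors, the interferon and TNF receptor genes Ifnar1 and Tnfrsf1a held a narrow range, 1921 to 2144 and 2783 to 3511. Tnfrsf1b, the second TNF receptor, spanned 1532 to 6658, and Il1r1 was too dim to test at 10.8 to 21.6. Beside 5994 of the 12527 genes tested, 12 of 15 phagocytic receptor genes lay above the upper quartile on all 6 arrays. They included Cd36, a scavenger receptor, at 15611 to 21485 units, the signalling chain gene Tyrobp at 18375 to 32551 and Trem2 at 7783 to 8677, with experiment means of Trem2 spanning 0.10. Of the chemoattractant receptors, C3ar1 spanned 11690.5 to 18441 units, and the receptor of dendritic cell migration, Ccr7, was too dim to test at 4.2 to 66.

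Cytokine genes divided into dim and bright ones at 10 min. Of 20 cytokine genes with a probe set, 7 were too dim to test: Il1a, Il6, Il12a, Il23a, Lif, Csf2 and Csf3. Il6, a late LPS target, read 13.4, 33.7 and 4.9 with LPS alone and 1.2, 2 and 41.2 with IL-10 added. Il12b, the shared subunit of IL-12 and IL-23, was tested but remained at 9.1 to 113 units, and the interferon gene Ifnb1 at 27.7 to 81.8. Tgfb1, the anti-inflammatory TGF-beta 1, spanned 4465 to 8176 units. Il1rn, the IL-1 receptor antagonist, spanned 582 to 3640. Il1b read 129, 226 and 370.1 with LPS alone and 104, 127 and 421 with IL-10 added, with both arrays of experiment 3 the highest.

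Of 22 chemokine genes, Ccl9 and Ccl6 were brightest at 23876 to 35759 and 7961 to 16340.1 units and passed the test neither with IL-10 nor with time. The neutrophil attractant Cxcl2 read 4970, 3295 and 2619.8 with LPS alone and 5070, 2836 and 2552 with IL-10 added. The monocyte attractant Ccl3 read 2249.5, 1752 and 1389 with LPS alone and 2108, 1763 and 1617 with IL-10 added. Experiment 1 gave the highest signals for both. Ccl17, Ccl22, Ccl24 and Cxcl5 were too dim to test.

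Several early response genes were already bright at 10 min, and the later arrays show which of them were below their later level. Set against the 12 arrays at 20 and 30 min over both treatments, 78 of 27110 probe sets (0.288%) differed at an adjusted p of 0.05 by limma. At 10 min 65 were lower (0.24%), from 45 named genes and 8 probe sets without a name, and 13 were higher (0.048%), from 7 named genes and 6 unnamed probe sets. The differences below are 10 min minus the later times, with standard errors, and mean signals are given with the SD over 6 and 12 arrays. Leaving out experiment 1 reduced the 78 calls to 22, leaving out experiment 2 reduced them to 22 also, and without the replicate block 11 were called. Without the 2 later arrays that stood apart 72 were called, of which 62 were among the 78. The calls that ended included those of Ccl2 and Mt2. They also included Egr1, Il1b, Stat2 and Ces5a, with adjusted p-values of 0.0757, 0.0894, 0.107 and 0.132 by limma.

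The genes furthest below their later level included feedback inhibitors and neutrophil chemokines. Socs3 had the largest difference, -2.75 ± 0.15 on probe set 1416576_at, and its 20 min means were 937 ± 539 units with LPS and 3031 ± 775 with IL-10 added, against 343 ± 145 over the 6 arrays at 10 min. Cxcl2 averaged 3557 ± 1163 units at 10 min and 14118 ± 5249.8 later, a difference of -1.95 ± 0.12 (adjusted p = 2.14e-08 by limma). All 6 arrays at 10 min lay below the group means at 20 min, 11340.5 ± 706 with LPS and 8389 ± 1517 with IL-10 added (SD, n = 3 each). Dusp1 averaged 4299 ± 1002 and then 11789.9 ± 3027, a difference of -1.44 ± 0.09. Ier3, an early survival gene, averaged 3002 ± 550.0 and then 7876 ± 3056, a difference of -1.31 ± 0.10. Cxcl1, at 449 ± 135 units and then 2224 ± 1964, differed by -1.88 ± 0.16. Its probe sets 1419209_at and 1441855_x_at differed by -1.86 and -0.83, both passing. Egr1, a zinc-finger early gene, differed by -1.55 ± 0.30 (adjusted p = 0.0243). Ptgs2, which makes prostaglandins, differed by -1.29 ± 0.21, and the phosphodiesterase gene Pde4b, on probe set 1442700_at, by -1.26 ± 0.09. A lower signal was not an absent one: the lowest array at 10 min read 3098 units for Dusp1 and 2358 for Ier3.

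The background for counts by gene was 0.279% of representative probe sets lower at 10 min. By list, 4 of 13 tested cytokine genes were lower at 10 min, namely Tnf, Il1b, Il10 and Tnfsf9, with a list median of -0.32 against 0.02 over all genes. Tnf differed by -1.09 ± 0.14 and Il10 by -0.70 ± 0.10. Of 18 chemokine genes 6 were lower: Cxcl1, Cxcl2, Ccl2, Ccl3, Ccl4 and Ccl7, the monocyte attractant Ccl7 by -1.01 ± 0.16. Of 28 immediate early genes 8 were lower: Fos, Jun, Junb, Egr1, Ier2, Ier3, Ppp1r15a and Zfp36, the last encoding a protein that destabilises cytokine mRNA. Of 19 genes listed as feedback inhibitors and related response genes 8 were lower: Nfkbiz, Tnfaip3, Dusp1, Dusp5, Socs3, Pde4b, Traf1 and Ptgs2. Of 16 IL-10 and STAT3 induced genes 8 were lower: Socs3, Sbno2, Etv3, Zfp36, Gadd45g, Mt2, Pim1 and Il10. The difference from 10 min is pooled over both treatments. With LPS alone Sbno2 averaged 421 ± 126 units at 10 min, 471 ± 29.7 at 20 min and 367 ± 67.3 at 30 min, and Gadd45g 639 ± 315, 808 ± 519 and 749 ± 366. With IL-10 added the 30 min means were 2150.1 ± 286 for Sbno2 and 2256 ± 109 for Gadd45g. The test of whether the IL-10 difference changed after 10 min passed for Sbno2 and not for Gadd45g (adjusted p = 0.87 by limma). No member of these lists was higher, and no receptor gene of any list was called. The lists were drawn up with earlier results of these arrays known.

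These counts depended on the experiments and on the block. Without the replicate block 0 of 13 cytokine genes were called lower, 1 of 18 chemokine genes (Cxcl2) and 1 of 28 immediate early genes (Ier3). In the same fit 3 of 19 feedback inhibitors and related response genes were called lower (Dusp1, Pde4b and Socs3). So were 2 of 16 IL-10 and STAT3 induced genes (Sbno2 and Socs3). Without experiment 1 the counts were 3, 5, 2, 4 and 3 in the same order, and without experiment 2 they were 1, 3, 2, 3 and 3. Tnf, Il1b and Il10 were called without experiment 1 and not without experiment 2. Cxcl2, Ier3, Dusp1, Pde4b and Socs3 were called in all 3 of these fits.

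For other early genes the representative probe set did not pass the test against the later times. Atf3, a stress-induced repressor of genes that TLR signalling induces, read 4714, 5957 and 2292 with LPS alone and 4600.2, 5328 and 2543 with IL-10 added. It differed from later by -0.01 ± 0.09, with a 95% interval of -0.20 to 0.19. Both arrays of experiment 3 were the lowest. Klf10, a TGF-beta induced factor, spanned 1279.8 to 3519.5 units and differed by -0.07 ± 0.11, and Ier5 by -0.10 ± 0.07. Nfkbia, the inhibitor that retains NF-kappa-B in the cytoplasm, was bright at 18125 to 27959.5 units and differed by -0.09 ± 0.10 on its brightest probe set. Its other probe sets disagreed: 1420089_at and 1449731_s_at were lower at 10 min by -0.68 and -0.41 and passed. Btg2 also depended on the probe set, since 1416250_at differed by -0.74 ± 0.19 without passing and 1448272_at by -0.78 with passing. The metallothionein gene Mt1, whose bright probe set differed by -0.17 ± 0.07, passed on the dim 1451612_at at -1.34.

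Of the 45 named genes lower at 10 min, 35 had a window in the RefSeq promoter table. The kappa-B-type motif was in 8 of them (Btg2, Cxcl1, Cxcl2, Dusp5, Ier3, Nfkbia, Pde4b and Tnfaip3), beside 6.62% of all 27025 genes in the table. The STAT-type motif was in 5 (Ctsc, Pde4b, Sbno2, Socs3 and Zfp36), beside 9.55% of all genes. These counts are descriptions without a test. The letters of the kappa-B-type motif were settled after other spellings had been searched in promoter windows, so no enrichment is read from its count.

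Of the 7 named genes higher at 10 min than later, 6 differed by 0.63 or less. Neat1, the long non-coding RNA of nuclear paraspeckles, averaged 5074 ± 678 units at 10 min and 3301 ± 573 later, a difference of 0.63 ± 0.09 (adjusted p = 0.00109 by limma). Clk1, a kinase of splicing factors, read 3049, 3540.5 and 3302 with LPS alone and 3098, 3632 and 3847 with IL-10 added and differed by 0.43 ± 0.06. Gas5, a host gene of small nucleolar RNAs, differed by 0.49 ± 0.08, Stat2, a subunit of the interferon-activated factor ISGF3, by 0.55 ± 0.11, the semaphorin co-receptor gene Nrp1 by 0.60 ± 0.10 and Fam53b by 0.62 ± 0.11. The carboxylesterase-family probe set Ces5a had the largest difference, 1.20 ± 0.25, with an adjusted p of 0.0494 by limma. None of the 7 calls remained without the replicate block or without experiment 1, where 1 probe set of any kind was called higher in place of 13: the adjusted p-values of Neat1 were 0.236 and 0.125 and those of Clk1 0.152 and 0.0898 by limma. The calls of Ces5a and Fam53b also ended after quantile normalisation, at 0.0677 and 0.0663. Of the 12 tested interferon-stimulated genes Stat2 alone passed in the fit of all arrays, and the list's median was 0.08.

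**Figure D4:**
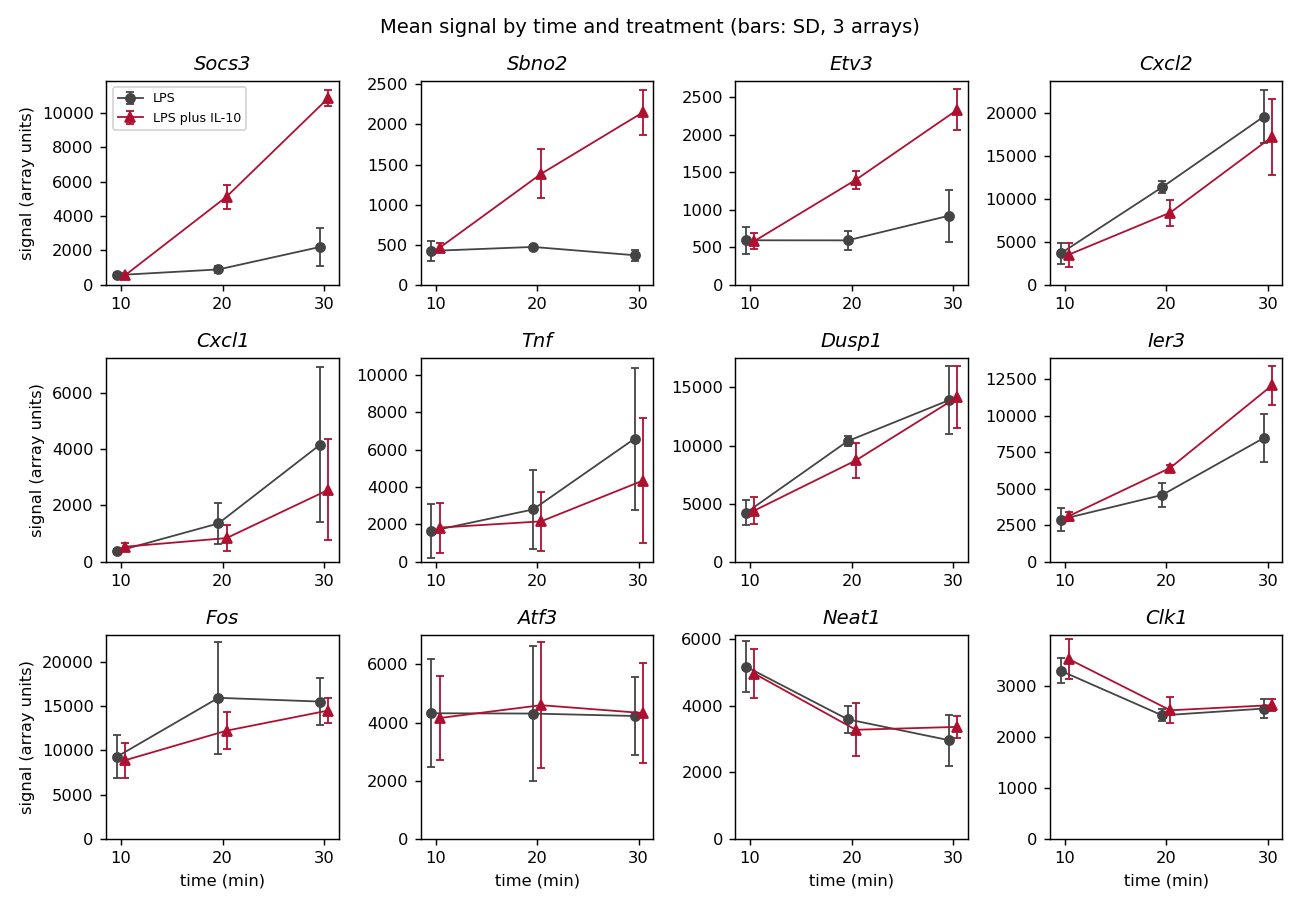
Mean signal (y axis, array units) at 10, 20 and 30 min (x axis) with LPS (grey circles) and LPS plus IL-10 (red triangles) for 12 genes; bars are the SD of 3 arrays, Socs3 is probe set 1455899_x_at and Etv3 is 1456358_at. The bars of the 2 treatments overlap at 10 min in each panel and lie apart at 20 and 30 min in Socs3, Sbno2, Etv3 and Ier3, of which Ier3 did not pass the interaction test; Atf3 is level, and Neat1 and Clk1 are highest at 10 min.

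The IL-10 difference itself was set against its later value by an interaction term. By limma 4 of 27110 probe sets (0.0148%) had an IL-10 difference at 20 and 30 min that departed from the one at 10 min, and all 4 were higher later: Sbno2, 2 probe sets of Socs3 and 1 of Etv3. At 10 min Sbno2 averaged 421 ± 126 units with LPS and 460.2 ± 56.1 with IL-10 added (SD, n = 3 each). At 30 min these were 367 ± 67.3 and 2150.1 ± 286, and the IL-10 difference had grown by 1.85 ± 0.21 (adjusted p = 0.00138 by limma). Socs3 (1455899_x_at) went from 553 ± 138 and 541 ± 119 at 10 min to 2196 ± 1134 and 10873 ± 454 at 30 min, a growth of 2.50 ± 0.30 over both later times. Its second probe set, 1456212_x_at, gave 2.23 ± 0.28. Etv3 (1456358_at) went from 591 ± 179 and 579 ± 104 to 919 ± 345 and 2331 ± 274, a growth of 1.31 ± 0.19 (adjusted p = 0.0133). Other probe sets of these genes did not pass: Socs3 1416576_at gave 1.74 ± 0.30 (adjusted p = 0.11 by limma), Sbno2 1458308_at 1.14 (adjusted p = 0.227) and the representative of Etv3, 1418637_at, 0.53 ± 0.14 (adjusted p = 0.875). Without the 2 later arrays that stood apart 4 were called, and Etv3 (1456358_at) was not among them, at an adjusted p of 0.108 by limma. Without experiment 1 the count was 0, as it was when the prior variance was not allowed to follow brightness, and the estimates then kept their sign.

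Between the 3 experiments the near-baseline state differed widely. At 10 min 7784 of 27110 probe sets (28.7%), from 4972 genes, differed between experiments by limma's F-test with treatment in the model. The range between the highest and the lowest experiment mean exceeded 2-fold for 2858 of these and 4-fold for 466. Leaving out experiment 1 left 2416 called, and leaving out experiment 3 left 5009. Over all tested probe sets the experiments took a median of 70.5% of the variation among the 6 arrays, with 40% of the degrees of freedom, and the treatment 5.82%, with 20%. Such differences in bulk RNA do not separate more cells of a kind from more RNA per cell.

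The genes with the widest ranges between experiments included Ccl5, Fpr2, Saa3 and Cfb. Ccl5, a chemokine that attracts T cells and monocytes, read 146 and 184 in experiment 1, 7366 and 7083 in experiment 2 and 1072 and 1284 in experiment 3, LPS first. No 2 experiments overlapped, and the experiment means spanned 5.33 on the log2 scale. Fpr2, a formyl peptide receptor, read 349 and 214 in experiment 1, 855 and 701 in experiment 2 and 5504 and 6265 in experiment 3, a range of 4.35. Saa3, a serum amyloid A gene of macrophages, read 1004 and 1114 in experiment 1, 10760.1 and 11784 in experiment 2 and 15149 and 13572 in experiment 3, a range of 3.74. Cfb, complement factor B, read 58.7 and 66.3 in experiment 1, 1043 and 1082 in experiment 2 and 391 and 365 in experiment 3, a range of 3.78. For Ccl5 and Cfb experiment 2 was highest, and for Fpr2 and Saa3 experiment 3.

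Other genes were highest in experiment 1. Ccl7 read 3487 and 2766 in experiment 1, 961 and 974 in experiment 2 and 215 and 314 in experiment 3, a range of 3.50, and Hmga2, a chromatin architectural protein, read 3533 and 3059 in experiment 1, 1515 and 1544 in experiment 2 and 279 and 264 in experiment 3, a range of 3.52. Ets2, Cdk14, Lrp8, Ccsap and the immunoglobulin heavy chain gene Ighm had ranges of 3.57, 3.54, 3.50, 3.58 and 3.72, and all 5 were highest in experiment 1. Tent5c, a poly(A) polymerase, was lowest in experiment 3, with a range of 4.43. Tnf belonged to this pattern too, with experiment means near 3131, 1692 and 379 units in experiments 1, 2 and 3.

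**Figure D5:**
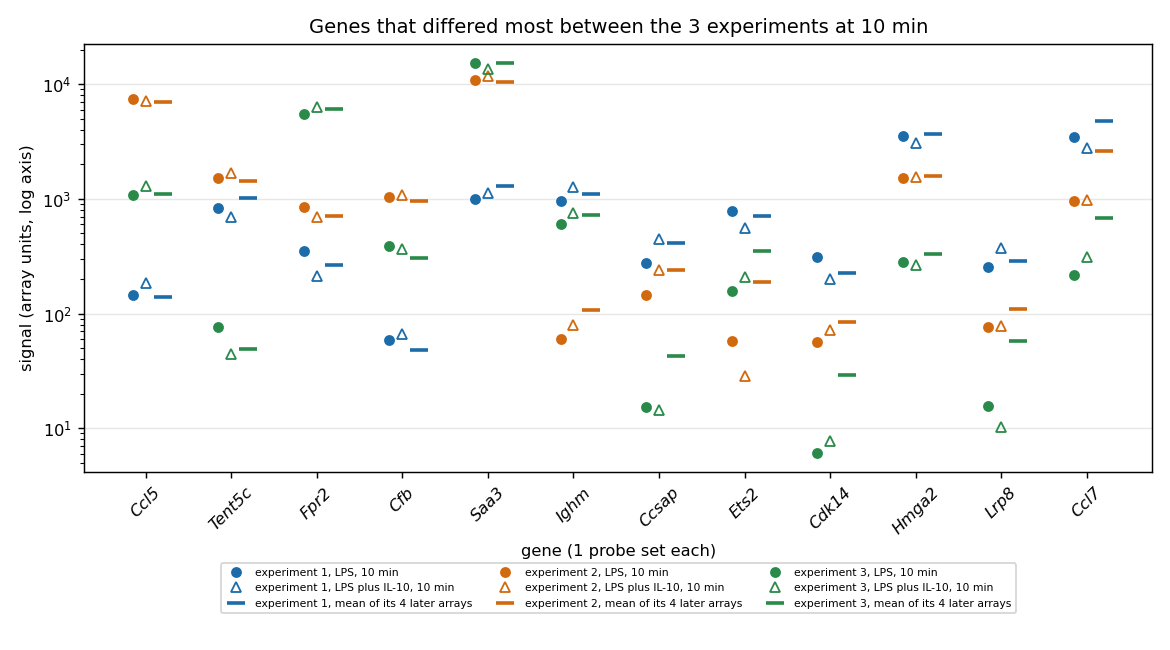
Signal (y axis, array units, log axis) of the 12 named genes with the largest range between experiments at 10 min (x axis); circles are LPS at 10 min, triangles LPS plus IL-10 at 10 min, dashes the mean of the experiment's 4 later arrays, and colours the experiments. The 2 arrays of an experiment sit close together, and the dashes keep the same highest experiment for each gene shown. The 12 genes were chosen among called ones with the same order of experiments under both treatments, so closeness of the 2 arrays was partly required.

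By list, shares of called members ran from 0% of the 3 erythroid to 87.5% of the 8 chemoattractant receptor genes tested. Of the tested members, 77.8% of the chemokines, 76.9% of the cytokines and 71.4% of the immediate early genes were called, against a background of 33% of representative probe sets and 8.33% of the housekeeping genes (1 of 12, Hprt). The fractalkine receptor gene Cx3cr1 read 454 and 337 in experiment 1, 343 and 312 in experiment 2 and 3180.1 and 3187 in experiment 3, a range of 3.22, and was high in experiment 3 alone. Irf7, a regulator of type I interferon, read 2401 and 2704 in experiment 1, 12437 and 12922 in experiment 2 and 2605 and 2673 in experiment 3 and was high in experiment 2 alone, as was Apoe, the apolipoprotein, at 2220.3 and 2628 in experiment 1, 10572 and 11278 in experiment 2 and 3276 and 4142 in experiment 3. The chemokine genes Ccl12, Ccl2 and Cxcl3 had ranges of 3.23, 2.63 and 3.44. Cxcl16 was low in experiment 1, at 1624 and 1582 units. Of the IL-10 receptor and JAK-STAT genes 5 of 9 differed between experiments, with Il10ra spanning 1.42 (adjusted p = 2.06e-05 by limma).

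The differences between experiments were also seen on the later arrays, which entered this comparison only through the estimate of spread. Of the 7784 probe sets called at 10 min, 6765 (86.9%) had the same highest experiment at 20 and 30 min, against 66.0% of all tested probe sets. The same full order of the 3 experiments was kept by 72.5%, against 47.4%. Across probe sets, the difference between 2 experiments at 10 min correlated with that at the later times at 0.71, 0.77 and 0.56 for experiments 1 and 2, 1 and 3, and 2 and 3. Probe sets are not independent, and arrays of an experiment share their mice and culture.

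Markers of other cell types were mostly dim apart from granulocyte and stromal genes. Of 9 lymphocyte markers with a probe set, 5 were too dim to test, among them Cd3d, the T cell receptor chain, at 3.8 to 12.7 units and Cd79a, the B cell receptor chain, at 15.3 to 42.3. The summed signal of the 9 was 301 to 649 units. Of the 7 dendritic and 5 erythroid markers, 4 and 3 were tested, and no member of either list exceeded the median on all 6 arrays. The 8 stromal markers summed to 2651 to 4273 units, with the collagen gene Col1a2 at 887 to 1193. All 7 tested stromal estimates were above 0 with IL-10, with a median of 0.25, and 0 passed.

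The summed signal of the granulocyte markers was highest in experiment 2, while 4 of 9 passed the test between experiments (44.4%, beside 33% of all representative probe sets). The 9 with a probe set summed to 7511 and 7835 units in experiment 1, 12836 and 12433 in experiment 2 and 6215 and 6010.3 in experiment 3, LPS first. The calprotectin subunit gene S100a8 read 3080.1 and 3194 in experiment 1, 7145 and 5892 in experiment 2 and 3219 and 2757 in experiment 3, and the granule gene Ngp 561 and 504 in experiment 1, 1226 and 1290.5 in experiment 2 and 564 and 609.5 in experiment 3, both highest in experiment 2. The early granule gene Mpo was highest in experiment 1, at 344 and 424 units. Beside the same 33%, 2 of 4 lymphocyte, 1 of 4 dendritic, 2 of 7 stromal (28.6%) and 8 of 15 macrophage markers (53.3%) passed, and nothing particular to these lists is read from such counts. The part of these markers in the differences between experiments was not tested.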

How the data were processed

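Total RNA of 18 samples in 6 groups of 3 was measured on single-colour Affymetrix arrays. The deposited values are intensity signals on a linear scale. Per the submitters' processing notes, the authors used GCOS 1.4, and the algorithm behind the signal was not given in the sources used here. Of 45101 probe sets, 64 were controls, 34945 had 1 gene symbol in the platform annotation, 932 several and 9160 none, and only those with 1 symbol were named. Probe sets at or above the array median on at least 3 arrays were kept. limma 3.58.1 in R 4.3.3 fitted log2(signal + 16) on all 18 arrays by group with the replicate number as a block, with a variance trend and Benjamini-Hochberg adjustment over 27110 probe sets, and the residual degrees of freedom were 10. A second model with experiment, for each time, and treatment gave the F-test between experiments. The scripts were tested on simulated data.

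The block follows the labels, which call each number an independent experiment. Deviations of same-numbered arrays at 10 min correlated at 0.39 to 0.60 (3 pairs), and those of different numbers at -0.40 to -0.04 (6 pairs). Deviations were taken from the mean of each group, so positive values for same numbers bring negative ones for different numbers. The negative values are therefore not separate evidence for the block. Arrays carry no depth, so the number of arrays limits the precision. Alternatives were no block, the 6 arrays alone, quantile normalisation, pseudocounts of 1 and 64, no filter, the 75th percentile, no variance trend, each replicate left out, 2 arrays left out, and 30 min alone. The named genes were the 25 brightest, a panel, examples from gene lists, and the smallest p-values and largest called differences. The smallest p-values with IL-10 and the largest differences over time were taken among genes with the same direction in all 3 experiments. The widest ranges between experiments were taken among called genes with the same order of experiments under both treatments. The 6 arrays, the panel and the lists were chosen with earlier results of these data known.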

Additional observations from a re-analysis of the deposited data

Results flagged for a closer look

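In 3 genes the IL-10 difference at 10 min was not the difference at 20 and 30 min, by the interaction term fitted across all probe sets. Sbno2 had an IL-10 difference that was larger later by 1.85 on the log2 scale, and Etv3 (1456358_at) one larger by 1.31. The 2 Socs3 probe sets, 1455899_x_at and 1456212_x_at, had differences larger later by 2.50 and 2.23.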

How the results depend on the processing

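Under all alternatives the count for the IL-10 difference at 10 min was 0, except that the 6 arrays alone gave 2. Without the replicate block it was 0 as well, with 309 probe sets at an unadjusted p below 0.05. Against 20 and 30 min, 78 calls became 11 without the replicate block, 42 without the variance trend, 118 against 30 min alone and 22 to 75 with 1 experiment left out. The 4 calls for the change of the IL-10 difference became 2 without the block, 0 without the trend and 0 to 4 with 1 experiment left out. The 7784 calls between experiments became 5384 without the variance trend and 9235 on the 6 arrays alone. Without the filter 7002 of 45037 probe sets (15.5%) were called, and with the filter at the 75th percentile 7071 of 12895 (54.8%). With 1 experiment left out, and so fewer arrays in the fit, 2416 to 6953 were called. Beyond those numbers of arrays, the cause of these changes was not tested. No named gene that was called changed sign. Of the named genes without a call, 17 of 49 IL-10 differences at 10 min changed sign with 1 experiment left out. Socs3 (1455899_x_at) went from -0.02 to 0.31 without experiment 1. The 49 include the genes picked for the same direction in every experiment, whose sign could not change in this way. None of the 17 was such a picked gene, so the share of 17 in 49 understates how often the other signs changed. The number of arrays limits dim genes most: among the dimmest 6778 probe sets 18.7% of intervals excluded a 2-fold IL-10 difference.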
